A study of Homo sapiens with 4 samples.

Results

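Glycolysis and the pentose phosphate pathway were followed here through 32 genes for glucose uptake, the glycolytic enzymes, lactate formation and export, pyruvate entry into mitochondria and the pentose phosphate branch. The members were chosen by symbol, as all probe sets whose platform annotation names 1 of them. Of the 32 genes, 30 had at least 1 probe set annotated to that gene alone, 54 probe sets in all. At least 1 probe set of 29 genes reached the median signal of an array and these 29 were compared, among 7916 genes tested of 11963 with a single symbol. ENO2, the neuronal enolase, stayed below that level with signals of 12.2 to 57.2. The lactate exporters SLC16A1 and SLC16A3 were not analysed here. A further 2 probe sets were annotated to both SLC2A14 and SLC2A3 and stood for neither gene.

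The cells were the human leukemia lines BV-173 and SUP-B15, both of which carry the Philadelphia chromosome and its BCR-ABL1 kinase. Each line was cultured without STI571 and with STI571 at 10 μmol/l for 16 h; STI571 is imatinib, which blocks that kinase. The 4 groups held 1 oligonucleotide array each, of total RNA, so each line is a single culture per condition and no response within a line has a replicate. A vehicle for the untreated cells is not given in the sources used here. Treated and untreated arrays of 1 line were paired, and the test of STI571 is of the mean of the paired differences over both lines. Its error is a value pooled over genes of like brightness in these 4 arrays. A gene's own disagreement between the lines does not enter it. The p-values speak only for these 4 arrays.

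Glucose enters cells through carriers of the SLC2A family, is phosphorylated by hexokinase and is split to pyruvate in the shared trunk of glycolysis, where phosphofructokinase sets the pace. Pyruvate is reduced to lactate by lactate dehydrogenase or enters mitochondria through the pyruvate dehydrogenase complex, which PDK kinases switch off. The pentose phosphate pathway branches off at glucose 6-phosphate and supplies ribose for nucleotides and NADPH. Proliferating lymphoid leukemia cells use all of these routes, and the transcription factors MYC and HIF-1 are known activators of many of the genes.

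Promoters are printed for 4 genes called lower after STI571, and for LDHA and PFKL, which were not called. SLC2A3, also called lower, has no entry in the promoter table. LDHA was picked because its first window holds 2 CACGTG, so its matches say nothing about the called genes. PFKL had the highest mean change of the 29. Each is the first listed window of the gene in RefSeq on GRCh38.p14, 250 bases before to 50 after the start, written 5′ to 3′ on the gene's strand. Capitals mark CACGTG, the E-box bound by MYC with MAX, and ACGTG or GCGTG, the core of HIF-1 sites, on either strand; every CACGTG also holds ACGTG.
ALDOC (chr17:28576846-28577145, minus strand): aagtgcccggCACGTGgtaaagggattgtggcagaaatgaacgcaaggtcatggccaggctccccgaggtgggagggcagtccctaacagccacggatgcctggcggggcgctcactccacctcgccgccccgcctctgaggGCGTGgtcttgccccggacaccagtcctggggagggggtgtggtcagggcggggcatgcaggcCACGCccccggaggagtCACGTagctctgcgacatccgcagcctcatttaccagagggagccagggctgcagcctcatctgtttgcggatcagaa
GPI (chr19:34364742-34365041, plus strand): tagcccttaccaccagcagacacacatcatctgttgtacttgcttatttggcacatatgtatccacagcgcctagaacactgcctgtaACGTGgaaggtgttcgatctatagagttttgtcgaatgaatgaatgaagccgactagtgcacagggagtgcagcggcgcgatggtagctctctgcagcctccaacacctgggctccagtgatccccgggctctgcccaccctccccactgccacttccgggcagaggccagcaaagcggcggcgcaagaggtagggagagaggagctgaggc
PKM (chr15:72231141-72231440, minus strand): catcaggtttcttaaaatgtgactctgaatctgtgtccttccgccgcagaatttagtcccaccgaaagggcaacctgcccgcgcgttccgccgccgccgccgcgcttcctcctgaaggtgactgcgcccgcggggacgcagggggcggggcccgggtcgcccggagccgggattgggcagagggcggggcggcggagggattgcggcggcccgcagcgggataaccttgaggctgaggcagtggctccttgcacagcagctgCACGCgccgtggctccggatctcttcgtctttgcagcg
PFKM (chr12:48105623-48105922, plus strand): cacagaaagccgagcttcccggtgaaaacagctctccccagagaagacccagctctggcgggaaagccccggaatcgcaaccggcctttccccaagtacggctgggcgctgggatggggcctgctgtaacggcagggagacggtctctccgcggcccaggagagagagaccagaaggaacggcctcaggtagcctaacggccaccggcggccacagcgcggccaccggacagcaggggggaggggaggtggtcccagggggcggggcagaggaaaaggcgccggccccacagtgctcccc
LDHA (chr11:18394313-18394612, plus strand): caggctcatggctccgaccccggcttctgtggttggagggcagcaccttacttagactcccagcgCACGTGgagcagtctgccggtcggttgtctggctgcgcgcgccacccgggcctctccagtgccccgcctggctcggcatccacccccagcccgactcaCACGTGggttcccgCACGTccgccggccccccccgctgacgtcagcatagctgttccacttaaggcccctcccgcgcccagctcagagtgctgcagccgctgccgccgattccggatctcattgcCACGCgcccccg
PFKL (chr21:44299803-44300102, plus strand): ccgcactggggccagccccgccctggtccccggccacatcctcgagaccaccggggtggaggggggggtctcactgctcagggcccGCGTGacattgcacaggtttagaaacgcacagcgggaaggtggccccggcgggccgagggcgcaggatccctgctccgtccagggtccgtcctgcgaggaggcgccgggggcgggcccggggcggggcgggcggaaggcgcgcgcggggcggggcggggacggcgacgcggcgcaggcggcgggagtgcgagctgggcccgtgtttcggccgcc
Counted by place, so that a CACGTG is not counted again as ACGTG, the ALDOC window held 1 CACGTG, 1 ACGTG and 2 GCGTG. LDHA held 2 CACGTG, 1 ACGTG and 1 GCGTG, GPI 1 ACGTG, PKM and PFKL 1 GCGTG each, and the printed PFKM window none of the 3. Among the other PFKM windows, those at chr12:48105103-48105402 and chr12:48105231-48105530 overlap and share 1 ACGTG, the same place in both. The rest held none of the 3. A window of HK2 also held 2 CACGTG, with 2 GCGTG, and that of PDHB had the most marked places, 5. In all, 30 of the 32 genes had 56 windows, of which 12.5% held CACGTG, 39.3% ACGTG and 44.6% GCGTG. The shares over all 35116 windows of the table were 7.26%, 21.4% and 36.5%. In these shares, unlike the counts by place, a window with CACGTG also counts as holding ACGTG. Overlapping windows were counted separately. A match is a description of these letters and was not tested as a binding site.

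Signal is given as deposited, as intensity on a linear scale. A change is the treated minus the untreated log2(signal + 24.5), where 24.5 is the 25th percentile of all signals, and this scale shrinks the changes of dim genes. Signals of different genes are not compared, since each probe set has its own response. A gene was called when its p from limma, adjusted by the Benjamini-Hochberg method over all 7916 genes, was under 0.05. Cell identity and array quality were checked first. All 9 B precursor markers on the array passed the filter, with signals of up to 29317, whereas 0 of 6 T cell, 2 of 7 myeloid, 1 of 3 erythroid and 2 of 5 stromal markers did, with no signal above 208. Of the B precursor markers 4 were called higher with STI571 and 0 lower (median mean change 0.77), and the part of this in the members' values was not tested. MME, the CD10 antigen, was near background in BV-173 (7.2 and 18.3) and bright in SUP-B15 (2047 and 4450). The 3'/5' ratio of the GAPDH control probe sets lay between 1.12 and 1.20 in all arrays and that of the ACTB control probe sets between 2.08, in treated SUP-B15, and 2.40. The treated BV-173 array stood apart in 18S ribosomal RNA controls, at 2817 against 1513 to 1597. The part of these control values in the members' values was not tested.

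STI571 lowered 5 of the 29 measured glucose metabolism genes and raised 0: the glucose carrier SLC2A3, the isomerase GPI, the phosphofructokinase PFKM, the aldolase ALDOC and the pyruvate kinase PKM. Over all genes tested 3.06% were called, 1.63% lower and 1.43% higher. The paired values were below 0 in both lines for 22 of the 29, above 0 in both for 3 and of opposite sign for 4; the shares over all genes were 26.5%, 28.9% and 44.5%. The median mean change of the members was −0.57, and 0.02 over all genes. In BV-173 the members' median was −0.27 and in SUP-B15 −0.66, against 0.05 and −0.01. Both treated arrays lay below both untreated arrays for 12 members and above them for 0, shares that were 10.4% and 12.0% over all genes. Of the members, 24 reached the array median in all 4 arrays, and the other 5 reached it in 1 to 3 arrays. In bulk RNA such as this, fewer cells of a type and less RNA per cell cannot be told apart.

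**Figure D1:**
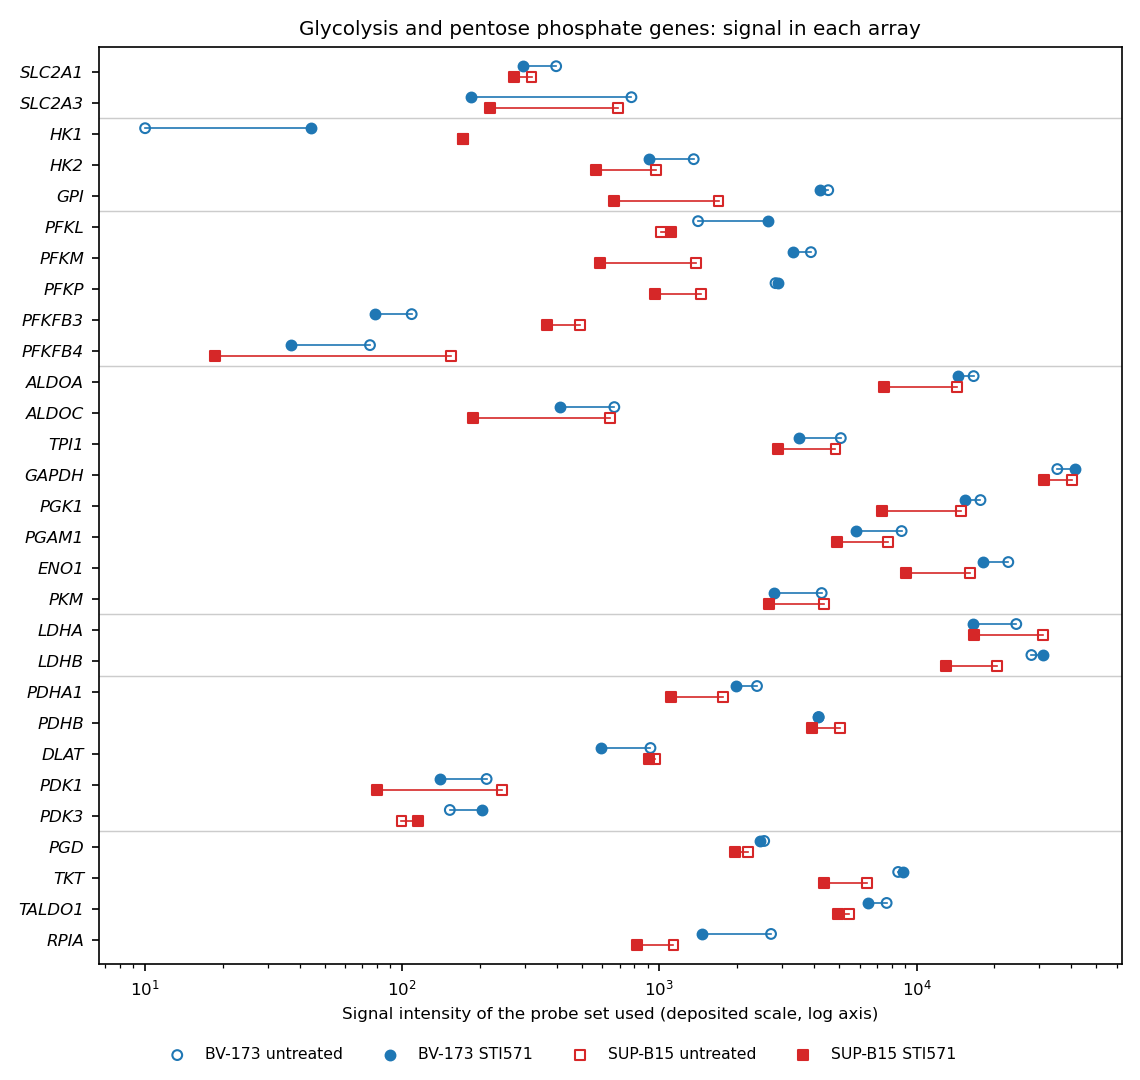
Signal intensity (log axis) of the probe set used for each of the 29 genes in the 4 arrays, open symbols untreated and filled symbols with STI571, circles BV-173 and squares SUP-B15, 1 array per symbol and no error bars. Grey lines separate the roles in the order uptake, hexose steps, phosphofructokinase, trunk, lactate, pyruvate entry and pentose phosphate; filled symbols lie to the left of open ones in both lines for 22 genes.

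SLC2A3, the high-affinity glucose carrier GLUT3, fell furthest among the members. In BV-173 the signal was 778 untreated and 186 treated, and in SUP-B15 it was 688 and 219. Both treated arrays were far below both untreated arrays, and the levels of the lines differed by 0.02 on the log2 scale (SE 0.29). The log2 changes were −1.93 and −1.55, a mean of −1.74 (SE 0.29, limma adjusted p = 5.37e-07). The 2 other SLC2A3 probe sets gave −1.78 and −1.33, and −1.61 and −2.0, in BV-173 and SUP-B15. The probe sets shared with SLC2A14 gave −1.67 and −1.37, and −0.91 and −1.26. Every probe set that carries SLC2A3 in its annotation was thus lower with STI571 in both lines. SLC2A1, the widely expressed carrier GLUT1, was not called (adjusted p = 0.815): its signal was 397 and 295 in BV-173 and 318 and 272 in SUP-B15, untreated and treated. A second, dimmer SLC2A1 probe set went the other way, with 53.9 and 125 in BV-173 and 3.6 and 7.8 in SUP-B15, so the direction for SLC2A1 depended on the probe set.

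Of the hexokinases, which trap glucose in the cell, HK2 gave 1359 untreated and 913 treated in BV-173, and 969 and 569 in SUP-B15. Both treated arrays were below both untreated ones, but the mean change of −0.65 (SE 0.23) did not pass (limma adjusted p = 0.0999). Its second probe set, with signals of 62.0 to 129, gave values of 0.64 and 0.31 in the lines. HK1 had its main signal in SUP-B15, 172 in both conditions, and 10.0 untreated and 44.3 treated in BV-173, where it stayed under the array median. GPI, which converts glucose 6-phosphate to fructose 6-phosphate, was called lower with a mean change of −0.71 (SE 0.21, limma adjusted p = 0.0235). The call rested on SUP-B15, where the signal went from 1698 to 669 (log2 change −1.31); BV-173 had 4534 and 4197 (−0.11). The 2 conditions of BV-173 both lay above those of SUP-B15.

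Phosphofructokinase, the committed step, is built from the liver, muscle and platelet subunits PFKL, PFKM and PFKP, whose values pointed different ways. PFKM was called lower (mean −0.72, SE 0.21, limma adjusted p = 0.0248), with 1390.5 untreated and 589 treated in SUP-B15 and 3883 and 3307 in BV-173. As with GPI the larger change was in SUP-B15 (−1.21 against −0.23). PFKP was 1453 untreated and 958 treated in SUP-B15 and 2828 and 2900 in BV-173, and was not called (adjusted p = 0.699). PFKL went the opposite way in BV-173, with 1413 untreated and 2648 treated, and had 1015 and 1111 in SUP-B15. Its mean change of 0.51 (SE 0.21) was the highest of the 29 members and did not pass (limma adjusted p = 0.231). A second PFKL probe set gave 1207 and 2314 in BV-173, then 882 and 865 in SUP-B15, so the BV-173 difference was found by both. The subunits thus differed in the direction of their BV-173 values, a difference between genes that was not tested.

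PFKFB3 and PFKFB4 make fructose 2,6-bisphosphate, the activator of phosphofructokinase. PFKFB4 was dim, with 74.9 and 36.9 in BV-173 and 155 and 18.7 in SUP-B15. It reached the array median in 1 array only, untreated SUP-B15, through which alone it entered the comparison, and its treated SUP-B15 signal lay under the added 24.5. Its mean change of −1.38 (SE 0.82) was not called (limma adjusted p = 0.547), and no exact size can be read from it. PFKFB3 had similar, uncalled changes of −0.38 and −0.40 (adjusted p = 0.804). Its signals were 109 and 78.2 in BV-173, then 491 and 366 in SUP-B15.

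**Figure D2:**
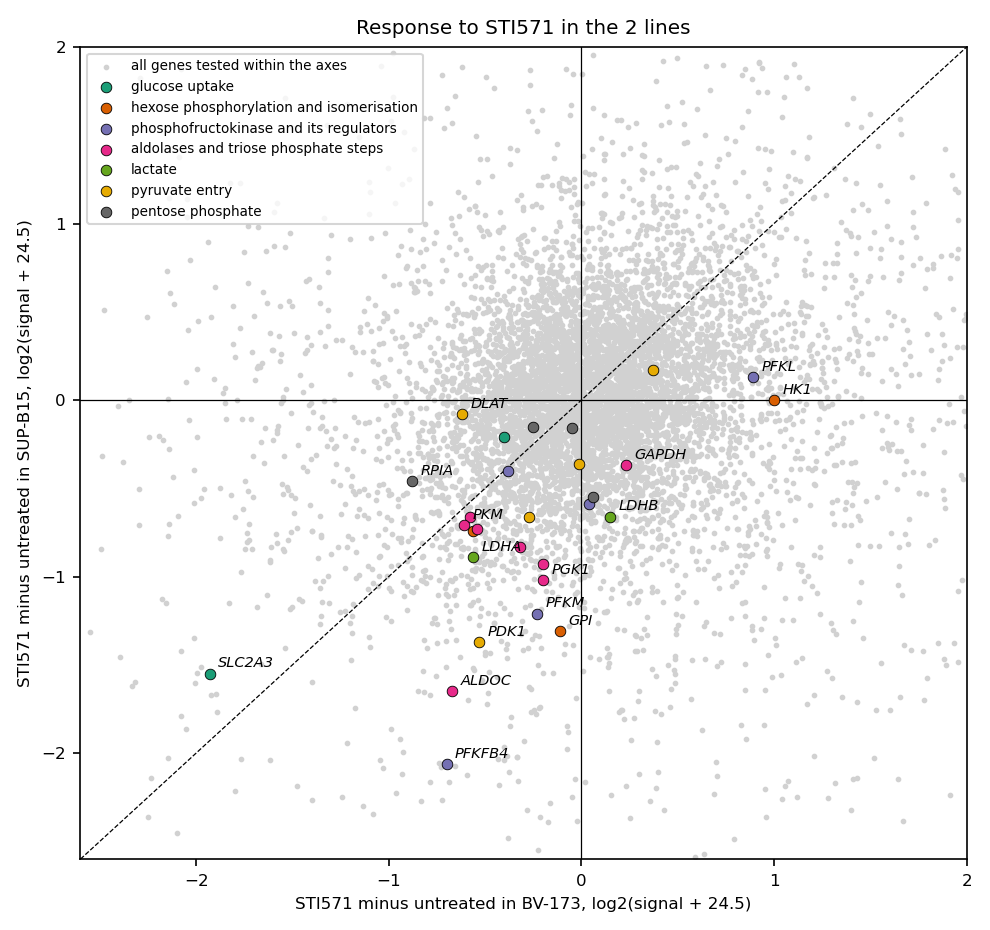
Change with STI571 in BV-173 (x axis) against SUP-B15 (y axis), both as differences of log2(signal + 24.5), for the 29 members coloured by role and all genes tested in grey; 138 genes fall outside the axes and the dashed line marks equal responses. SLC2A3 lies apart at −1.93 and −1.55, most trunk enzymes lie below both zero lines and under the dashed line, and PFKL and HK1 lie to the right at 0.89 and 1.0 in BV-173.

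In the trunk of glycolysis, from aldolase to pyruvate kinase, most values were moderately below 0. Of its 8 measured genes 7 had a negative change in both lines and 7 an unadjusted p under 0.05, against 12.4% of all genes, and 2 were called. ALDOC, the aldolase best known from brain, fell by 1.16 on the log2 scale (SE 0.28, limma adjusted p = 0.00225). BV-173 had 668 untreated and 410 treated, SUP-B15 644 and 188. It started at like levels in both lines and both treated arrays lay below both untreated ones. PKM, the pyruvate kinase of proliferating cells, had 4275 untreated and 2791 treated in BV-173, and 4359 and 2662 in SUP-B15. It fell by 0.66 on the log2 scale (SE 0.20, limma adjusted p = 0.0427). The values of both lines were close in each condition, and a second PKM probe set gave −0.53 and −0.75.

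The other trunk enzymes had mean changes of nearly the same size without passing the test. TPI1, triose phosphate isomerase, gave 5074 and 3487 in BV-173 and 4836 and 2903 in SUP-B15 (mean change −0.63, SE 0.20, limma adjusted p = 0.057). Its other probe sets gave −0.93 and −0.77, and −0.56 and −1.11, in BV-173 and SUP-B15. Their mean changes were −0.85 and −0.83, and the order of the lines depended on the probe set. PGAM1, a phosphoglycerate mutase, gave 8747 and 5828, then 7718 and 4892 (−0.62, SE 0.21, adjusted p = 0.0755). In both genes the treated arrays lay below the untreated ones for the probe set used. ALDOA, PGK1 and ENO1, the aldolase, phosphoglycerate kinase and enolase of most tissues, had larger values in SUP-B15 (−0.93, −1.02 and −0.83) than in BV-173 (−0.20, −0.20 and −0.32), with adjusted p-values of 0.169, 0.119 and 0.173. In SUP-B15 the PGK1 signal was 14908 untreated and 7348 treated, and in BV-173 17720 and 15431. The 3 other PGK1 probe sets gave −0.59 and −0.60, −0.56 and −0.94, and −0.21 and −0.34 in BV-173 and SUP-B15, so the 2-fold value in SUP-B15 and the size of the gap between lines came from the brightest probe set alone.

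GAPDH, the dehydrogenase between these steps and a common reference gene, was the exception. Its signal was 35256 untreated and 41487 treated in BV-173, and 40351 and 31286 in SUP-B15. The lines moved apart (log2 changes 0.23 and −0.37), their mean was −0.07 (SE 0.25, limma adjusted p = 0.967), and the treated and untreated arrays overlapped. The 2 other GAPDH probe sets gave 0.18 and −0.34, and 0.21 and −0.26, and the maker's 3 GAPDH control probe sets gave 0.09 to 0.14 in BV-173 and −0.36 to −0.24 in SUP-B15.

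Lactate dehydrogenase is a tetramer of A and B chains. LDHA, the chain that favours lactate formation, gave 24417 untreated and 16586 treated in BV-173, and 31049 and 16738 in SUP-B15. Both treated arrays lay below both untreated arrays, and the mean change of −0.72 (SE 0.23) missed the threshold (limma adjusted p = 0.0615). LDHB gave 27961 and 31092 in BV-173 and 20504 and 12995 in SUP-B15 (adjusted p = 0.796). A second LDHB probe set was below 0 in both lines (−0.06 and −0.42).

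At the entry of pyruvate into mitochondria 0 of 5 measured genes were called and 2 had an unadjusted p under 0.05, a level that 12.4% of all genes reached. PDK1, a kinase that inhibits pyruvate dehydrogenase, gave 213 and 140 in BV-173 and 244 and 79.5 in SUP-B15 (mean change −0.95, SE 0.44, limma adjusted p = 0.318). PDK3, of the same family, was the only one of the 5 with a positive value in both lines, 0.37 and 0.17 (adjusted p = 0.915). The subunits of the complex itself had smaller values. PDHA1 gave −0.27 and −0.66, PDHB −0.01 and −0.36, and DLAT, the acetyltransferase core, −0.62 and −0.08. Its other probe sets gave 0.13 and −0.41, and −0.73 and −0.27, so the order of the lines for DLAT depended on the probe set. So did the order for PDHA1, whose other probe set gave −0.36 and −0.19.

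In the pentose phosphate branch 0 of 4 genes were called. RPIA, which makes ribose 5-phosphate, stood apart from the other three. Its signal was 2717 untreated and 1463 treated in BV-173 and 1134 and 816 in SUP-B15, a mean change of −0.67 (SE 0.22) just short of a call (limma adjusted p = 0.0557). It was 1 of 5 members whose value was further below 0 in BV-173 than in SUP-B15. PGD, the NADPH-forming dehydrogenase, gave −0.05 and −0.16, TALDO1, transaldolase, −0.25 and −0.15, and TKT, transketolase, 0.06 and −0.55, with adjusted p-values of 0.757 to 0.924. The TKT signal was 8480 and 8841 in BV-173 and 6397 and 4374 in SUP-B15.

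**Figure D3:**
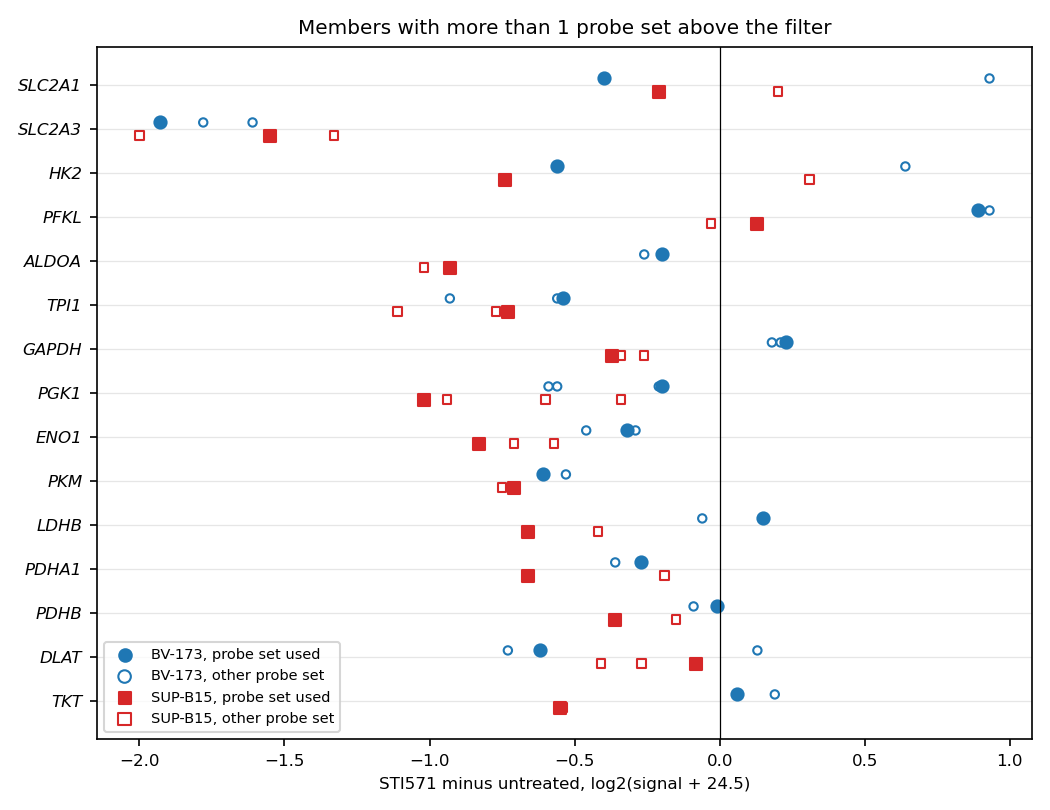
Change with STI571, as a difference of log2(signal + 24.5), for every probe set above the filter of the 15 genes that had more than 1, circles BV-173 and squares SUP-B15, filled for the probe set used. Of 22 further probe sets 20 had a mean change of the same sign as the one used; those of SLC2A1 and HK2 did not.

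The lines' responses were set side by side, and their order depended on how the arrays were scaled. With the deposited scaling, a change of at least 2-fold downward was found for 1 member in BV-173, SLC2A3, and for 7 in SUP-B15: SLC2A3, GPI, PFKM, PFKFB4, ALDOC, PGK1 and PDK1. Over all genes such downward changes were 4.65% in BV-173 and 5.70% in SUP-B15. SLC2A3 was the 1 member with them in both lines, against 0.884% of genes. Upward, 0 members reached 2-fold, against 6.91% of genes in BV-173 and 4.13% in SUP-B15, where changes of either direction made up 9.83%. At 1.5-fold 6 members were lower in BV-173 and 17 in SUP-B15, against 11.3% and 14.3% of all genes. Upward at 1.5-fold there were 2 members in BV-173, PFKL and the dim HK1, and 0 in SUP-B15. The upward shares over all genes at that fold were not counted. The response of SUP-B15 lay below that of BV-173 for 24 of 29 members, against 54.3% of all genes, and by at least 1.5-fold for 13, against 21.3%; it lay above by that much for 0, against 15.4%. With all arrays scaled to a common median, the response of SUP-B15 was the lower one for 17 of 29 members, against 37.3% of all genes. By at least 1.5-fold it then lay below for 5 members and above for 3, against 13.9% and 26.4%. With quantile normalization the count was 23 of 29, against 51.8%. A gap of 2-fold or more was found for GPI (−1.20) and for PFKFB4, whose size cannot be read, against 10.8% of all genes in that direction, and for 0 members in the other, against 6.51%. These counts have no replicate and the difference in response was not tested; the treated BV-173 array is the one that stood apart in 18S ribosomal RNA.

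Levels of many members also differed between the lines over both conditions. Of the 29 members 12 were called lower in SUP-B15 and 2 higher, against 14.5% of all genes in each direction. GPI had 4534 and 4197 in BV-173 and 1698 and 669 in SUP-B15, a log2 difference of −2.01 (SE 0.21, limma adjusted p = 2.47e-20). PFKM differed by −1.95 (SE 0.21) and PFKP by −1.26 (SE 0.21). All 3 phosphofructokinase subunits were thus lower in SUP-B15, PFKL by −0.85. RPIA differed by −1.03, LDHB by −0.85, ENO1 by −0.75, TKT by −0.71, PGK1 by −0.66, PDHA1 by −0.63, ALDOA by −0.58 and HK2 by −0.57. PFKFB3 was higher in SUP-B15 by 1.94 (SE 0.38, adjusted p = 4.12e-06). HK1 was the other gene called higher (adjusted p = 0.0195); it entered only through the SUP-B15 arrays, at 172 in both, and with 10.0 and 44.3 in BV-173 under the array median the size of its difference cannot be read. PKM, SLC2A3, GAPDH, PDHB, TPI1 and LDHA differed by 0.18 or less in size and were not called. The dim PFKFB4 was not called either. Its difference of 0.17 (SE 0.82) averaged 0.85 untreated and −0.51 with STI571, and its size cannot be read. Both SUP-B15 arrays lay below both BV-173 arrays for 14 members and above them for 2, against 30.9% and 29.0% of all genes.

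**Figure D4:**
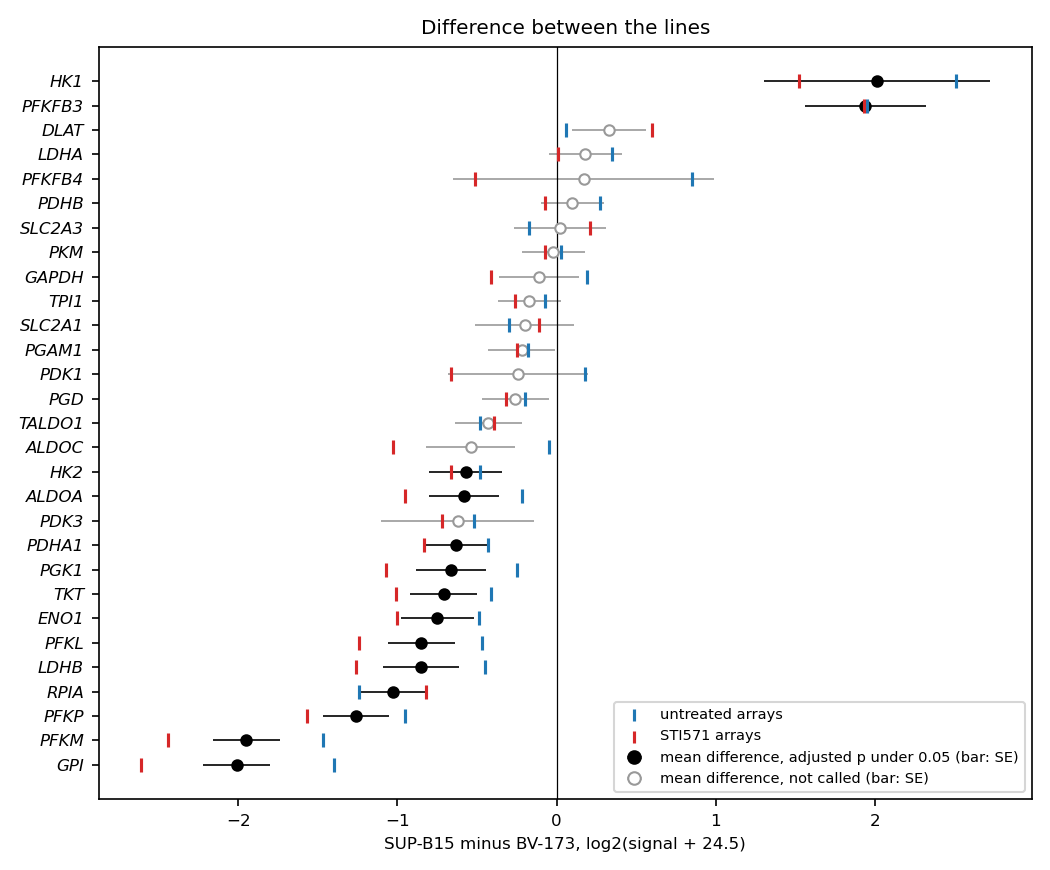
Level in SUP-B15 minus BV-173, as log2(signal + 24.5), for each of the 29 genes: points are means over both conditions with the SE of the limma fit, black where the adjusted p was under 0.05; blue and red ticks are the untreated and STI571 arrays alone, 1 pair each. GPI and PFKM lie lowest at −2.01 and −1.95, PFKFB3 lies at 1.94, the place of HK1 rests on dim BV-173 signals, and the red tick lies left of the blue one for 24 genes at the deposited scaling.

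Related genes outside the members were described from 3 further lists. Of 54 other genes of glucose, glycogen, pyruvate and pentose metabolism 33 were measured; limma called 0, and 5 were lower and 0 higher at an unadjusted p under 0.05, a share close to the 12.4% of all genes. Their median mean change was −0.09. The largest mean changes were those of the pyruvate carboxylase gene PC (125 and 6.8, 118 and 3.2 in the lines, adjusted p = 0.272), PDK2, a kinase of pyruvate dehydrogenase (134 and 29.8, 242 and 124, adjusted p = 0.302), and GPD2, the mitochondrial glycerol phosphate dehydrogenase (7.0 and 144, 57.6 and 45.8, adjusted p = 0.741). All 3 are dim, and PC passed with no filter (adjusted p = 0.0327). The tricarboxylic acid cycle list also held related enzymes such as ACO1, IDH1, MDH1, ME2 and ACLY. Of its 19 measured genes 1 was called lower and 0 higher, against 1.63% and 1.43% of all genes, with a median of −0.20. The gene was SUCLG2, a succinyl-CoA ligase subunit, with 1942 and 1479 in BV-173 and 1198 and 278 in SUP-B15 (mean change −1.20, SE 0.23, adjusted p = 2.16e-05). IDH3A, a subunit of the mitochondrial isocitrate dehydrogenase 3, had −0.80 and −0.30. IDH1, a separate cytosolic isocitrate dehydrogenase, had 0.82 and 0.24, and neither was called.

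The list of known HIF-1 targets outside glycolysis also held HIF1A and ARNT, the subunits of HIF-1 itself. It gave 2 of 18 called lower and 0 higher, against 1.63% and 1.43% of all genes, with a median of −0.15. BNIP3, a mitophagy receptor, had 2676 untreated and 1465 treated in BV-173, then 2228 and 1055 in SUP-B15 (mean −0.96, SE 0.21, limma adjusted p = 0.000557). ADM, the peptide adrenomedullin, had 1237 and 653, then 792 and 414 (mean −0.90, SE 0.24, adjusted p = 0.011). Treated arrays lay below untreated ones for BNIP3 and ADM. BHLHE40, a transcriptional repressor, had the largest mean change, −1.43, and was not called (adjusted p = 0.156). These lists are given by their counts and medians, and no list was tested against another.

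The calls of the 5 members did not stand equally under other processing. SLC2A3 and ALDOC kept theirs under either other scaling (quantile or common median), either other pseudocount (1 or 98), either other filter, the mean of probe sets and a robust prior. GPI, PFKM and PKM lost theirs with a common median (limma adjusted p = 0.144, 0.157 and 0.143) and with the mean of probe sets (0.184, 0.143 and 0.172). LDHA was called with quantile normalization (adjusted p = 1.98e-05), a common median (0.000429) and the 75th percentile filter (0.0491). ENO1, PGK1 and ALDOA were called with quantile normalization and a common median. TPI1 was called in 2 of 12 alternatives, PGAM1 in 2 of 11 and RPIA in 3 of 12. Their lowest limma adjusted p-values were 0.0299, 0.039 and 0.0299. No member was called without the cell line as a pair or without the intensity trend of the variance, where 3 and 5 members had an unadjusted p under 0.05.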

How the data were processed

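Per the labels, total RNA was biotin-labelled by the array maker's standard protocols; the submitters' processing notes name GCOS 1.3. The authors deposited signal intensity per probe set; how probes were summarised is not stated. Every column had a 2%-trimmed mean of 500.2, the mark of scaling array by array. The array number limits precision.

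Of 22277 probe sets, 62 were controls; 19064 carried 1 symbol, 1043 several and 2108 none. Of the first, 19052 matched RefSeq (GRCh38.p14) by Entrez ID, for names only. Probe sets below the 50th percentile of all 4 arrays were left out, and the remaining one with the highest mean signal stood for its gene. Of the 29 genes, 17 rested on a probe set that the maker marks as shared between transcripts, 4 of them with the mark for cross-hybridising probes.

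log2(signal + 24.5) was computed from the deposited values and fitted with limma 3.58.1 (R 4.3.3), with cell line and treatment as terms and an intensity trend, two-sided, Benjamini-Hochberg over 7916 genes at 0.05. Pairing comes from the line in the titles. With 1 residual degree of freedom and infinite prior degrees of freedom, SEs are the trend's value at a gene's brightness. The fit was also run on simulated arrays drawn from its own trend, with equal changes in both lines. That run cannot show how the fit handles genes whose lines respond unequally. Responses of single lines were counted at 2-fold, without a test. Every member was named; those called, or with a mean change of at least 1, got all 4 signals; other lists gave called genes and the 3 largest mean changes. Members and lists were chosen with earlier results of these data known. Alternatives were the normalization, pseudocount, filter, probe set choice, model terms and fold.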

Additional observations from a re-analysis of the deposited data

Results flagged for a closer look

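For 4 members the response to STI571 pointed opposite ways in the lines, upward in BV-173 and downward in SUP-B15, with 1 pair of arrays per line; the difference was not tested. The response of SUP-B15 minus that of BV-173 was −0.81 on the log2 scale for LDHB, −0.62 for PFKP, −0.61 for TKT and −0.60 for GAPDH. Opposite signs were found for 44.5% of all genes. With a common median the BV-173 values of PFKP (−0.13), LDHB (−0.02) and TKT (−0.11) were below 0, and with quantile normalization that of LDHB (−0.17); GAPDH kept its opposite signs in both.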

How the results depend on the processing

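Against 5 members called for STI571 (3.06% of all genes), 10 were called with quantile normalization (3.02%) and 2 with the mean of probe sets (1.47%). With the 75th percentile filter 9 of 23 measured were called (6.02%), and with gene-specific probe sets 3 of 16 (2.82%). With no replicate block for the cell line, or without the intensity trend, 0 members and 0 of all genes were called. Every member called under any of these was lower. Against 14 called between the lines (29.0% of all genes), 5 of 16 were called with gene-specific probe sets (27.8%), 7 with no treatment term (18.6%) and 3 without the trend (8.56%). At least 2-fold changes in BV-173, 1 as reported, became 8 at 1.5-fold, 6 lower and 2 higher. They became 2 with a common median, 3 with a pseudocount of 1 and 0 with gene-specific probe sets. In SUP-B15 7 became 17 at 1.5-fold, 2 at 3-fold and 4 with gene-specific probe sets. Responses at least 2-fold apart, 2 as reported, became 13 at 1.5-fold, 0 at 3-fold, 6 with a pseudocount of 1, and 1 with a common median, a pseudocount of 98, the 75th percentile filter or gene-specific probe sets. Of other pathway genes, 1 was called with no filter, against 0 as reported. The causes were not tested, except that gene-specific probe sets and the stricter filter leave fewer genes. Choosing the brightest probe set by mean log2 signal, added after seeing the data, changed none of these counts beyond 1.5 times. Signs of the mean change kept under both other scalings for all 29 members. Scaling to a common median took the median change of all genes in BV-173 to −0.11, from 0.05, and in SUP-B15 to 0.09, from −0.01. Dim signals leave PFKFB4 and HK1 without a readable fold.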

Other observations

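Among the related genes, PRPS2, which makes the ribose donor for nucleotides from the product of RPIA, was bright in 1 line only and was singled out after its values were seen. Its signal was 2420 untreated and 1795 treated in BV-173, and 14.4 and 3.7 in SUP-B15, under the added 24.5, so the size of the difference cannot be read. PYGL, a glycogen phosphorylase, went the other way, with 58.1 and 92.9 in BV-173 and 543 and 508 in SUP-B15. The fructose carrier SLC2A5 gave 4216 and 2816 in BV-173 and 1801 and 1174 in SUP-B15, a line difference of −1.23 (SE 0.21). Its STI571 values, −0.58 and −0.61, were not called (adjusted p = 0.094).

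HIF1A, the regulated subunit of HIF-1, had 4950 untreated and 6526 treated in BV-173 and 3075 and 3775 in SUP-B15. This was a positive value in both lines that was not called (limma adjusted p = 0.538). Of the 18 measured genes of its list 7 were lower in both lines, 4 higher in both and 7 of opposite sign. A link between HIF1A and the other genes of the list was not tested.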
